A study of Mus musculus with 2 samples.

Results

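The miRNAs described here are the 3p arms of the mouse hairpins numbered miR-6896 to miR-7094, which were annotated together and are mostly mirtron-type. They were chosen by name alone, as every mouse miRNA on the array with a number in this range, an optional letter after it and the ending -3p. The rule found 199 miRNAs among the 1881 mouse miRNAs of the array, which was 10.6%, and they were measured by 414 of its 4415 probes. The samples were exosomes from the culture supernatant of LLC cells, a mouse Lewis lung carcinoma line. The cells carried no genetic change or treatment that the labels name, and according to the study's methods exosomes were isolated by ultracentrifugation after culture in medium with exosome-free serum. RNA of 2 independent experiments was hybridized with Cy3 to 2 Agilent miRNA arrays, 1 for each replicate. There was 1 group with no control sample, so no difference between conditions was tested.

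A miRNA hairpin is normally cut from its primary transcript by Drosha and then by Dicer, and either of its arms can be loaded into an Argonaute protein to silence mRNAs that match the seed, bases 2 to 8 of the mature strand. Mirtrons bypass Drosha. They are short introns, or parts of introns, that splicing releases and that fold into a hairpin for Dicer. The 3p arm of a mirtron lies at the end of the intron, which in a spliced gene holds a pyrimidine-rich tract followed by the AG of the splice acceptor. Exosomes are small vesicles that cells secrete and that carry RNA, miRNAs included, to other cells.

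Of the 199 3p arms, 17 were detected on both arrays, and mature sequences of 15 of them were matched by name in the RefSeq table of assembly GRCm38.p6. These 15 are printed 5′ to 3′ from the highest mean intensity to the lowest, because their letters share features that are counted further on. The seed is in capitals.
miR-7022-3p: aCAAGCCUgaccucugccccca
miR-7082-3p: gCCCCCCUugcugucugucucc
miR-7047-3p: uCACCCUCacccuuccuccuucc
miR-7080-3p: cAGGCUCAccccuccguucccu
miR-6943-3p: cUGCUUCCauaccccuacccag
miR-6934-3p: aCCUCUGCuccugccccaccag
miR-7085-3p: uAGCUGGCcucuccccaccuuc
miR-7055-3p: uUGCUACUuugauaccccaccag
miR-6897-3p: cGGUCUGUguucuucccccag
miR-6968-3p: aCAAGCGCugucuccccuccag
miR-7046-3p: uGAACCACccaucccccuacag
miR-7067-3p: uGAUUGCUucccuccccacag
miR-6924-3p: uCCUUAAUccccacccuucag
miR-7045-3p: uCUCCCCCcucccccgcacag
miR-7052-3p: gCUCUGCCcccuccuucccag
The other two detected 3p arms were miR-6923-3p and miR-6980-3p.

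The 15 sequences had 15 different seeds. Only miR-6897-3p shared its seed with another matched miRNA of the array, miR-5106. Among the 175 3p arms with a matched sequence there were 168 different seeds. Seeds shared within the series formed 6 groups with 13 members, such as CACCCUG in miR-7018-3p, miR-7023-3p and miR-7068-3p, and none of the 13 was detected on either array. With 8.54% of all 199 3p arms and 11.5% of all miRNAs detected on both arrays, 13 members are too few to set them apart. The hairpins that carry a letter after their number were fewer still. The 3p arms of miR-6973a, miR-6973b, miR-7036a and miR-7036b were detected on neither array, and the highest intensity among them was 4.03, for miR-7036a-3p in replicate 1.

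The values are background-subtracted fluorescence intensities in the scanner's arbitrary units, as the mean over the spots of each probe and then over the probes of each miRNA, with 30 spots for each miRNA on an array. To set the arrays on 1 scale, a level was computed as the log2 of the signal over the array's 75th percentile among the probes that both arrays detected. That percentile was 50.2 in replicate 1 and 40 in replicate 2, so a level of 0 stands for a signal of that size. A miRNA was called detected where the total signal of at least 1 of its probes exceeded 3 times its error. Probes differ in how well they hybridize, so differences between miRNAs are differences in array signal and do not give relative copy numbers. The brightest negative control spot reached 9.45 in replicate 1 and 9.35 in replicate 2. The medians over the 986 and 995 control spots were 0.619 and 0.739. A control value is that of 1 spot and a miRNA value is a mean over 30, so the brightest control spot is not a typical background. Of 4 miRNAs common in extracellular vesicles, 3 were detected on both arrays, among them miR-21a-5p at 40.5 and 54.9. The fourth, miR-16-5p, gave 2.82 and 2.39 and was detected on neither. Of the others, 0 of 3 erythroid, 0 of 5 epithelial, 0 of 1 liver and 0 of 2 muscle miRNAs were detected. As 11.5% of all miRNAs of the array were detected on both arrays, zeros in lists this short cannot check the label. The mesenchymal list had 2 of 3 detected.

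In replicate 1, 17 of the 199 3p arms were detected, and in replicate 2, 18. Both arrays had 17, which was 8.54%, beside a background of 11.5% for all miRNAs of the array (13.5% in replicate 1 and 11.9% in replicate 2). The 5p arms of the same series were detected on both arrays in 30 of 200 cases, or 15.0%, and the 541 other 3p arms of the array in 48 cases, or 8.87%. The share of the 3p arms was thus lower than that of their 5p partners and close to that of 3p arms elsewhere on the array. The only 3p arm detected on 1 array alone was miR-7017-3p, with an intensity of 7.32 and a signal of 2.64 times its error in replicate 1, and 9.33 and 3.36 times in replicate 2. The remaining 181 were detected on neither.

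**Figure D1:**
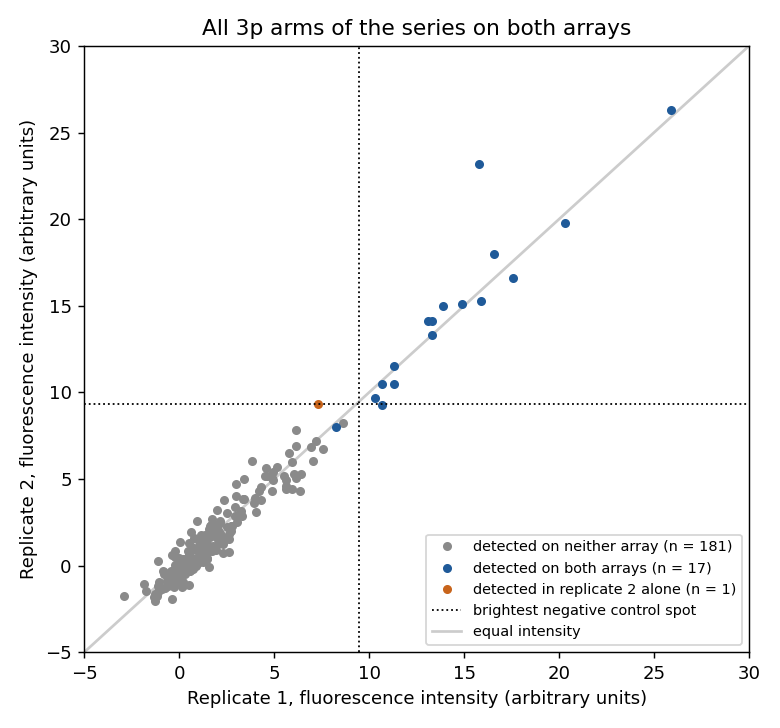
Fluorescence intensity (arbitrary units) of each of the 199 3p arms in replicate 1 (horizontal axis) and replicate 2 (vertical axis), with the call by colour. The grey line marks equal intensity and dotted lines mark the brightest negative control spots, 9.45 and 9.35. The 181 undetected 3p arms lie below both dotted lines and the detected ones mostly above, up to 26.3.

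The place of the 3p arms relative to the array depended on how strict the call was. A looser call asked that 50% or more of a probe's spots be positive and significant against background on both arrays, and 66 of the 199 passed, or 33.2%, beside a background of 25.2% for all miRNAs. The 5p arms of the series passed this call in 31.5% and the other 3p arms in 21.1%. When the spots had to be well above background, 8 of the 199 passed, or 4.02%, beside a background of 7.07%, and the 5p arms passed in 10.5%. The other 3p arms passed in 4.99%, close to the share of the series. The share of the 3p arms was above the background under the looser call and below it under the stricter one. Of the 181 undetected 3p arms, 48 passed the looser call, with intensities of 2.51 to 8.63 in replicate 1 and 1.85 to 8.21 in replicate 2. All of them were below the brightest negative control spot. At the other end, 36 of the 181 were below 0 after background subtraction on both arrays. Neither the 48 nor the 36 is set beside the same share of all undetected miRNAs, so neither can be read as a trait of the series.

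The 17 detected 3p arms were dim. Their intensities had a median of 13.3 and a range of 8.28 to 25.9 in replicate 1, and a median of 14.1 and a range of 8.0 to 26.3 in replicate 2. Over all 216 miRNAs detected on both arrays the medians were 18.7 and 16.6, and the highest intensities 5014 and 4507. Of the 17, 16 were brighter than every negative control spot in replicate 1 and 15 in replicate 2. The highest probe of each gave a signal of 3.19 to 6.55 times its error in replicate 1 and 3.2 to 6.59 times in replicate 2. The median level was -1.74, with a range from -2.61 to -0.79, and the median of all 216 was -1.46. None of the 17 had a level above 0, where 43 of the 216 did. They held ranks 66 to 189 of the 216, with 12 past the middle of the order. Together they made up 7.87% of the detected miRNAs by number and 0.894% and 1.02% of the summed intensity of all detected miRNAs in replicates 1 and 2.

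miR-7022-3p was the brightest, with 25.9 in replicate 1 and 26.3 in replicate 2, and a level of -0.79 ± 0.25 (SD, n = 2). Its 2 probes gave 26.0 and 25.7 in replicate 1 and 26.9 and 25.8 in replicate 2, and every one of its spots was well above background on both arrays. It ranked 66 of 216 and came first among the 17 on each array. miR-7082-3p followed with 20.3 and 19.8 and a level of -1.21 ± 0.20 (SD, n = 2), at rank 84. Its probes were further apart, at 16.0, 20.4 and 24.4 in replicate 1 and 15.6, 17.7 and 26.1 in replicate 2.

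miR-7047-3p differed most between the arrays. Its intensity was 15.8 in replicate 1 and 23.2 in replicate 2, and its level was -1.24 ± 0.64 (SD, n = 2), which placed it at rank 127 on the first array and rank 69 on the second. Both of its probes showed the difference, with 15.8 and 15.8 in replicate 1 and 23.3 and 23.2 in replicate 2. Next came miR-6943-3p with 17.6 and 16.6, at a level of -1.41 ± 0.17. For miR-7080-3p the intensities were 16.6 and 18.0 and the level was -1.42 ± 0.33. The order of these 3 was reversed between the arrays, with miR-6943-3p highest in replicate 1 and miR-7047-3p in replicate 2.

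The middle of the order was tightly packed. miR-6934-3p had intensities of 15.9 and 15.3, miR-7085-3p 14.9 and 15.1, and miR-7055-3p 13.9 and 15.0 in replicates 1 and 2. The intensities of miR-6897-3p were 13.3 and 14.1, those of miR-6923-3p 13.1 and 14.1, and those of miR-6980-3p 13.3 and 13.3. The mean levels of these 6 ran from -1.54 to -1.78 with SDs of 0.19 to 0.33, which include the shift between the arrays that most miRNAs shared. Within each array miR-6934-3p had the highest level of the 6, at -1.68 and -1.40, and miR-7085-3p and miR-7055-3p changed places, the former at -1.79 and -1.45 and the latter at -1.90 and -1.44 on the first and second array. The 8 that were well above background were the brightest of all, namely miR-7022-3p, miR-7082-3p, miR-7047-3p, miR-7080-3p, miR-6943-3p, miR-6934-3p, miR-7085-3p and miR-7055-3p.

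The dimmest 6 came near the brightest single negative control spot, though they were far above the control medians of 0.619 and 0.739. miR-6968-3p had intensities of 11.3 and 11.5, miR-7046-3p 11.3 and 10.5, and miR-7067-3p 10.7 and 10.5 in replicates 1 and 2. For miR-7045-3p they were 10.3 and 9.65, for miR-6924-3p 10.7 and 9.29, and for miR-7052-3p 8.28 and 8.0. miR-6924-3p in replicate 2 and miR-7052-3p on both arrays were below the brightest negative control spot. Only 1 of the 2 probes of miR-7052-3p and of miR-7046-3p was detected on each array, and the same held for miR-7045-3p and miR-6924-3p in replicate 2. The dimmer probe of miR-7052-3p gave 6.48 and 5.63 in replicates 1 and 2, and the brighter one 10.1 and 10.4. In replicate 2 their levels were -3.12 and -1.97. They were the only pair of probes among the 17 miRNAs more than 1 log2 unit apart in level on either array. The brightest undetected 3p arms were miR-6976-3p, with 8.63 and 8.21 and a signal of at most 2.78 and 2.89 times its error, and miR-6931-3p, with 7.22 and 7.19. miR-6976-3p was thus as bright as the dimmest detected one, and the call separated them by the best probe.

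**Figure D2:**
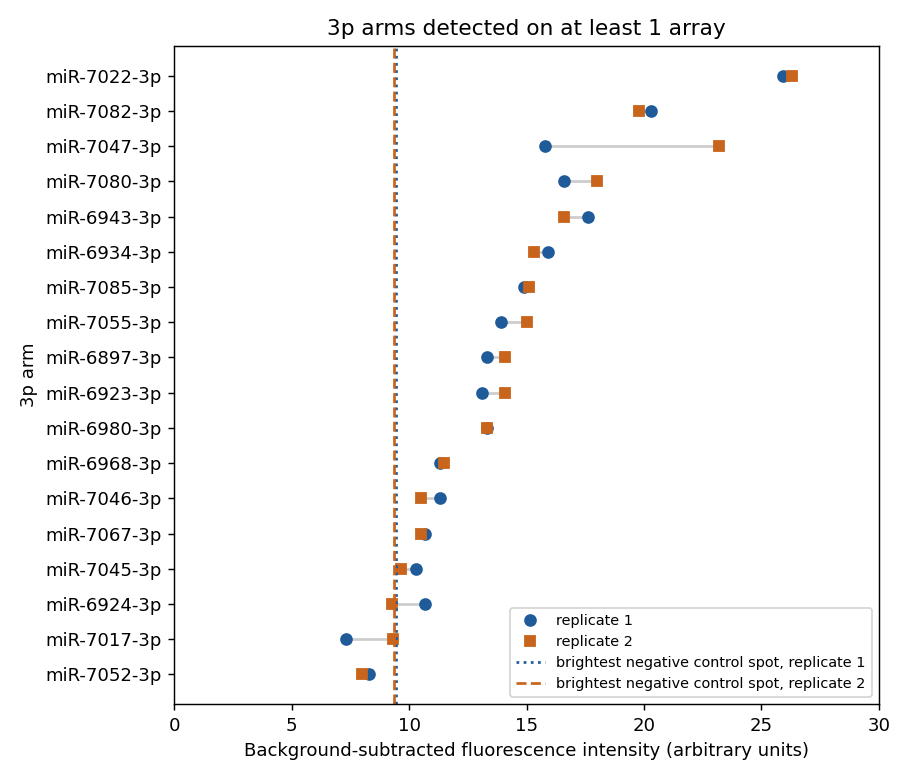
Fluorescence intensity (arbitrary units, horizontal axis) of the 18 3p arms detected on at least 1 array, ordered by mean intensity, with circles for replicate 1, squares for replicate 2 and vertical lines at the brightest negative control spots, 9.45 and 9.35. miR-7022-3p stands apart at 25.9 and 26.3, miR-7047-3p has the widest gap between its points, and miR-7052-3p and miR-7017-3p fall to the left of both lines.

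The arrays placed the 17 in a similar order, and across these miRNAs, which are not independent samples, Spearman's rho was 0.958 and Pearson's r was 0.939, or 0.926 without miR-7022-3p. By level, 17 of 17 were higher in replicate 2, by 0.08 to 0.9 with a median of 0.33. Of all 216 detected miRNAs, 143 were higher in replicate 2, and the median difference was 0.21. By unscaled intensity, 9 of 17 were higher in replicate 2. The scaling itself adds 0.33 to every log2 value of replicate 2, so the shift of the 17 was as large as the scaling and the unscaled signals were on balance equal. The 5 largest differences were those of miR-7047-3p, miR-7080-3p, miR-7055-3p, miR-6897-3p and miR-6923-3p. The median SD of the 17 was 0.23, near the 0.25 of all 216.

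Both arms of 198 hairpins were on the array. In 3 of them both arms were detected on both arrays, in 14 only the 3p arm, in 27 only the 5p arm, and in 154 neither. The shares detected were 8.54% of the 3p arms, 15.0% of the 5p arms and 11.5% of all miRNAs. With shares this low, few hairpins would have both arms detected even if the calls of the arms were unrelated. Whether they were related was not tested, and no such counts are given for other hairpins of the array. In the 3 hairpins with both arms the 5p arm gave the higher signal on each array. For miR-7082 the 5p arm gave 91.0 and 64.5, beside 20.3 and 19.8 for the 3p arm. For miR-7045 it gave 51.9 and 34.0, beside 10.3 and 9.65, and for miR-7047 28.0 and 37.1, beside 15.8 and 23.2. The 2 probes of miR-7047-5p disagreed, by up to 2.15 log2 units in level. The lower one gave 3.96 and 4.09 times its error in replicates 1 and 2, where both miR-7047-3p probes gave at least 4.65 and 6.04 times. The median difference in level, 3p minus 5p, was -2.19 in replicate 1 and -1.74 in replicate 2, with a mean of -1.97 ± 0.31 (SD, n = 2). An exact two-sided sign permutation test over the arrays gave p = 0.5, which is the smallest p that 2 arrays allow.

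Among the 14 hairpins with only the 3p arm detected on both arrays, 3 also had their 5p arm detected in replicate 1. These 5p arms were miR-6980-5p at 15.9 and 6.01, miR-7080-5p at 9.88 and 5.18, and miR-7055-5p at 6.97 and 2.04 in replicates 1 and 2. In replicate 1 miR-6980-5p was brighter than its 3p partner at 13.3, so this hairpin did not favour the same arm on both arrays. The 5p partners of the other 11 were detected on neither array. Opposite the brightest 3p arm, miR-7022-5p gave 1.1 and 0.611. miR-6934-5p gave 0.791 and 0.84, miR-7085-5p 0.304 and 0.248, and miR-6943-5p -0.958 and -1.89, all near or below zero signal.

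The reverse pattern reached higher signals. miR-7036a-5p gave 156 and 221 while its 3p arm gave 4.03 and 3.12, and miR-6931-5p gave 415 and 44.3 while its 3p arm gave 7.22 and 7.19. Over the 30 detected 5p arms the median level was -1.08 and the highest 2.04, with 20 of them before the middle of the order of the 216. The detected 3p arms had a median level of -1.74 and a highest level of -0.79.

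**Figure D3:**
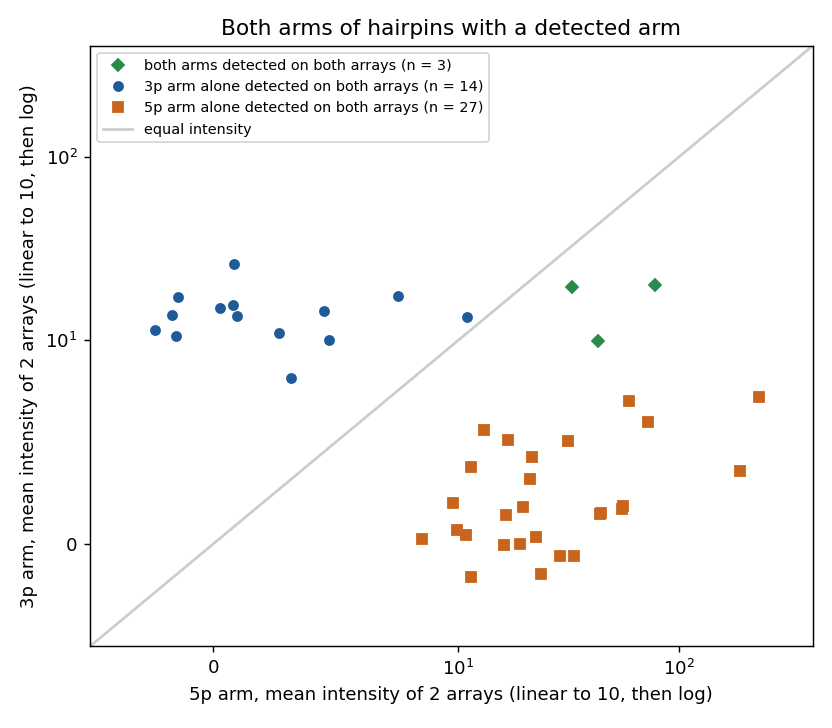
Mean intensity over the 2 arrays (arbitrary units, linear up to 10 and logarithmic above) of the 5p arm (horizontal axis) and the 3p arm (vertical axis) for the 44 hairpins with an arm detected on both arrays. The 14 hairpins with only the 3p arm detected lie above the line of equal intensity, the 27 with only the 5p arm below it, and the 3 with both arms detected also below it.

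Nearly all of the 3p arms lay inside genes. Of the 175 3p arms with a position in the RefSeq table, 174 lay within a protein-coding gene, or 99.4%, compared with 745 of 1257 other miRNAs of the array with a position, or 59.3%. The exception was miR-7094-3p. The strand of the host gene was given at 152 of the 177 loci, and at all 152 a host lay on the strand of the miRNA. miR-6910-3p, miR-6966-3p and miR-7013-3p also lay in another coding gene on the opposite strand. The table does not hold introns or exons, so whether a 3p arm lay in an intron was not determined. Host gene RNA was not measured on these arrays.

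The hosts of the detected 3p arms had varied functions. miR-7022-3p lies on GRCm38.p6 at chr4:148146937-148146958 on the minus strand, within Fbxo6, which encodes a substrate receptor of a ubiquitin ligase for glycoproteins. miR-7082-3p lies at chr9:21075499-21075520, minus strand, within Raver1, which encodes an RNA-binding protein. The position of miR-7080-3p is chr8:123130147-123130168, plus strand, within Cpne7, a copine gene. miR-6943-3p lies at chr13:55453150-55453171, plus strand, within Grk6, which encodes a kinase of G protein-coupled receptors, and miR-6934-3p at chr11:119154076-119154097, minus strand, within Tbc1d16, which encodes a Rab GTPase-activating protein. miR-7046-3p lies at chr7:24970010-24970031, minus strand, within Rabac1, which encodes a prenylated Rab acceptor protein. Chromosome 7 held 4 of the 15 detected 3p arms with a position and 17 of the 177 loci.

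Other hosts included genes used by nearly every cell and genes best known from neurons or liver. miR-7045-3p lies in Chd4, the helicase of the NuRD chromatin complex, and miR-6897-3p in Uggt1, a folding sensor of the endoplasmic reticulum. miR-7055-3p lies in Slc17a7, which encodes a vesicular glutamate transporter, and miR-7085-3p in Slc37a4, which encodes the glucose-6-phosphate transporter. miR-6968-3p lies in Phf1, miR-6924-3p in Acap1, miR-7052-3p in Josd2 and miR-7017-3p in Wasf2.

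Most of the hairpins ended in the letters of a splice acceptor. A hairpin sequence was matched for 172 of the 3p arms, and 162 of these hairpins, or 94.2%, ended in AG, against 52 of 520, or 10%, for the other 3p arms of the array. The 3p arm ended within 2 bases of the hairpin's end in 156, or 90.7%, against 31.3% of the others. Only 19, or 11.0%, also began with GU, the start of an intron. Of the 15 detected ones, 15 ended in AG and 2 began with GU as well. The hairpins of 4 bright 3p arms are printed below to show this layout, with the 3p arm in capitals, and the 1, 2 or 4 bases after the arm complete the AG in miR-7022, miR-7082 and miR-7080.
miR-7022: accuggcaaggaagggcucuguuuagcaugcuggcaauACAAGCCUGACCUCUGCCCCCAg
miR-7082: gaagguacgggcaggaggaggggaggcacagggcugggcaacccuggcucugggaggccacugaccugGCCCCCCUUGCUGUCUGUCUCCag
miR-6943: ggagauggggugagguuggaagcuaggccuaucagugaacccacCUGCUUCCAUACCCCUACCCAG
miR-7080: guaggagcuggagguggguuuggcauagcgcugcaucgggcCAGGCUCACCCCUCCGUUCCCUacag
Of these, the hairpin of miR-7080 is the one that begins with GU and ends in AG.

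The base composition of the 3p arms set them apart from the array as a whole. Pyrimidines made up 71.8% of the bases on average, against 48.1% in the 1433 other miRNAs and 32.8% in the 5p arms of the same hairpins. CAG closed 118 of the 175 mature sequences, or 67.4%, against 2.79% of the other miRNAs. The letters GGAG were in 0 of 175, against 81 of 176 5p arms, or 46%. CCCU was in 64 of 175, or 36.6%, against 8.65% of the other miRNAs. In the 459 other 3p arms with a matched sequence, pyrimidines made up 53.5% of the bases on average. CAG closed 6.1% of these, GGAG was in 6.97% and CCCU in 10.9%, so GGAG was also uncommon there. All motifs were sought on the mature strand alone. CAG closed 10 of 15 detected and 107 of 159 undetected ones, or 66.7% and 67.3%, and their mean lengths were 21.8 and 21.5 bases.

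The detected 3p arms held more cytosine than the undetected ones. The mean GC content was 62.8% in the 15 detected 3p arms and 55.0% in the 159 detected on neither array, and it was 7.69 percentage points higher in the 15 than in all 160 others. That difference lay in C, at 50.2% and 39.0%, and not in G, at 12.6% and 16.0%. A higher GC content was not particular to the detected 3p arms. It was 58.1% in the 182 detected miRNAs with a matched sequence and 52.3% in all 1608. In the 5p arms of the series it was 61.6% in the 29 detected and 58.6% in all 176. Mean C content was 23.6% in the 182 and 24.4% in the 1608. The counts of C and of C runs that follow were chosen after the values were seen and carry no test. Split into 3 groups by C content, the 3p arms with the least C had 1 of 59 detected, the middle group 2 of 58 and those with the most C 12 of 58. The median intensities of these groups were 0.789, 1.3 and 2.77 in replicate 1, and 0.466, 1.18 and 2.79 in replicate 2. In fixed classes of under 25%, 25% to under 40% and at least 40% C, 0.0%, 2.86% and 13.8% of the 3p arms were detected. Over all matched miRNAs of the array these shares were 11.5%, 8.02% and 18.0%, which did not rise steadily with C. Over the 175 3p arms, Spearman's rho of the mean intensity was 0.355 with C content, 0.42 with pyrimidine content, -0.47 with G content and 0.0312 with GC content. Over all 1608 matched miRNAs of the array it was 0.102, 0.219, -0.0983 and 0.105 in the same order. These are descriptions across miRNAs of the same 2 arrays.

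A run of at least 4 C was common among the detected 3p arms. It was in 14 of 15 detected 3p arms, or 93.3%, with miR-7047-3p as the exception, and in 33 of 159 undetected ones, or 20.8%. In the printed sequences it is seen as cccc, and it began after the seed in 11 of the 14. In miR-7082-3p, miR-7045-3p and miR-7052-3p it began within the seed, and the first 2 of these had runs of 6 C. A CCCC followed by U was also counted as CCCU above. CCCC was in 5.09% of the other miRNAs of the array and in 7.84% of the 3p arms among them.

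The share detected was higher with longer runs. Of the 65 3p arms whose longest run was 1 or 2 C, 0 were detected on both arrays. With a run of 3 it was 1 of 63, with a run of 4 it was 8 of 39, or 20.5%, and with 5 or more it was 6 of 8, or 75%. The median intensities in replicates 1 and 2 were 0.746 and 0.322 with 1 or 2 C, 1.16 and 0.878 with 3, 4.88 and 4.92 with 4, and 10.8 and 10.1 with 5 or more. The same counts in the other miRNAs of the array, the 5p arms of the series included, were alike for long runs and higher for short ones. Of the other miRNAs of the array with a matched sequence, 12 of 59 with a run of 4, or 20.3%, and 10 of 14 with 5 or more, or 71.4%, were detected, but also 145 of 1360 with shorter runs, where the 3p arms of the series had 1 of 128, or 0.781%. The part of base composition in the signal was not tested.

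**Figure D4:**
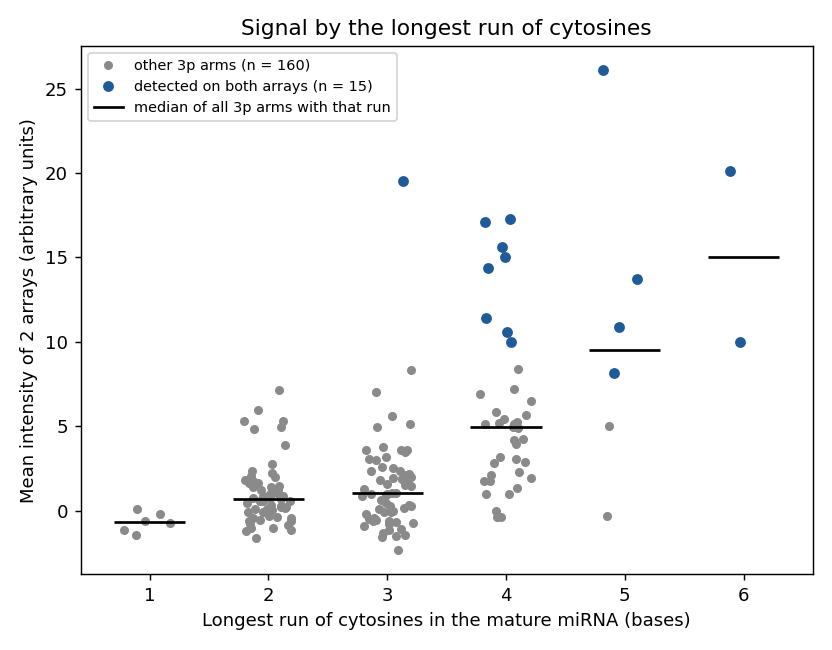
Mean intensity over the 2 arrays (arbitrary units, vertical axis) of the 175 3p arms with a matched sequence, by the longest run of cytosines in the mature miRNA (horizontal axis, points spread sideways for legibility), with medians as black lines. Of the 15 detected 3p arms, 14 have a run of at least 4, and miR-7047-3p is the one detected with a run of 3.

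The undetected 3p arms closest to detection had the same makeup in part. The letters of the 2 brightest are printed for comparison with those of the detected ones.
miR-6976-3p: aUCUCCCUcccaacuccccag
miR-6931-3p: cCCAACCUcuucauaccccag
Both hold cccc just before the closing ag. The next in brightness did not all have such a run, since the longest run of C was 2 in miR-7057-3p, at 7.56 and 6.71, and 3 in miR-7011-3p, at 6.16 and 7.85. Under the looser call by positive and significant spots, 34 of the 59 3p arms with a matched sequence that passed had a run of at least 4 C, or 57.6%, compared with 13 of the 116 that did not, or 11.2%. Under the stricter call, well above background, it was 7 of 8, compared with 40 of 167.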

How the data were processed

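Exosomal RNA of 2 independent LLC cultures was measured on 2 one-colour arrays. The authors deposited spot fluorescence intensities from Feature Extraction 10.7.1.1 (file headers; the submitters' processing notes name version 9.1), background-subtracted and not normalized between arrays, together with other values, the detection flags of each spot and miRNA. The authors also deposited a log2 table whose scale and centring stay unknown (median of each column -3.32, its lowest value). Its values above that minimum were those of the 3p arms detected on the same array. The labels describe a blood RNA kit, globin removal and cRNA labelling, and which steps these arrays had was not settled.

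Control spots and outlier spots (115 and 71 of 5970 spots of the 3p arms in replicates 1 and 2) were left out, and 0 were saturated. Signals were divided by the array's 75th percentile over probes detected on both arrays, the lowest positive value replaced those not above 0, log2 was taken, and spots and then probes were averaged. The percentile was 50.2 and 40. Feature Extraction's call equalled "at least 1 probe above 3 times its error" for 1881 of 1881 miRNAs on each array. Both arrays lay on 1 slide, scanned in 1 session. With 2 arrays, their number limits the precision.

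The members and lists were chosen with earlier results of these data known. Named were all detected 3p arms, the one detected on 1 array, the 5 largest array differences, hairpins with both arms detected, letter and seed families, and the dimmest detected and brightest undetected ones. Sequences, positions and hosts came from RefSeq tables of GRCm38.p6, which matched 175 of 199 members and 1608 of 1881 miRNAs, and some hosts are not reported here. Alternatives covered the call, scaling, background, probe summary, filter, deposited table and each replicate. The computation was tested on simulated arrays, whose signals were mostly brighter than those of the detected 3p arms. That test therefore says little about levels as dim as these. Tools were Python 3.11.15 with numpy 2.4.6, pandas 2.3.3, scipy 1.17.1 and matplotlib 3.10.9, and R 4.3.3 with limma 3.58.1 (normexp, offset 50).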

Additional observations from a re-analysis of the deposited data

How the results depend on the processing

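The number of 3p arms detected on both arrays, 17, became 66 with positive and significant spots, 8 with spots well above background and 13 when every probe had to be detected, and the 14 hairpins with only the 3p arm detected became 46, 6 and 11. On single arrays these numbers ranged from 17 to 18 and from 11 to 15. With every probe detected, the 13 were 6.53% of the 3p arms, beside 7.5% of all miRNAs and 5.36% of the other 3p arms. The median level of -1.74 became 2.47 when all probes set the 75th percentile and 2.55 in the authors' log2 table, both with another zero, -0.53 with normexp and -9.07 over all 199 without the filter on dim miRNAs, where most values are background, and it was -1.95 and -1.53 on single arrays. The median 3p minus 5p level stayed below 0 under each of the alternatives tried, from -2.12 in the deposited table to -0.58 with normexp, and ranged from -2.19 to -1.74 on single arrays. It covers only the 3 hairpins with both arms detected. The 14 with only the 3p arm detected and the 27 with only the 5p arm are left out of it. Pearson's r between the arrays fell to 0.774 in the deposited table and was at least 0.917 otherwise. The GC difference of 7.69 percentage points was 2.4 with positive and significant spots, 7.04 with well above background, and 7.69 to 8.0 on single arrays. The causes were not tested. miR-7022-3p, miR-7082-3p and miR-7052-3p held places 1, 2 and 17 among the 17 under each of the 6 ways of computing levels. The share with a run of at least 4 C under other calls was added after seeing the data. No paired analysis was possible because there was 1 group, and a slide block was not run because both arrays lay on 1 slide.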
